A study of Mus musculus with 3 samples.

Results

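Tbx21, Eomes, Runx3, Gata3, Foxp3, Zeb2, Prdm1, Ikzf2 and Id2 are 9 genes for transcription factors or their partners that set the identity of T and natural killer (NK) lymphocytes. The 9 were taken as a named list, by gene symbol, from the 55401 genes counted in leukocytes of mouse melanoma tumours, and all 9 were found once each. The list is fixed by name and uses no threshold on a value, but it was drawn up with earlier results of these data known. Each was followed across CD8, CD4, regulatory and gamma-delta T cells and NK cells at 3 ages of the host.

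Lymphocytes that look alike under the microscope are told apart by the transcription factors they keep on. T-bet, from Tbx21, and Eomesodermin, from Eomes, are T-box proteins that turn on interferon gamma and the killing machinery in NK cells and CD8 T cells, and Zeb2 is a zinc-finger partner of T-bet in terminal effector cells. Runx3 keeps CD4 silent in CD8 cells, Gata3 is needed by CD4 T cells and by many regulatory cells, and Foxp3 defines regulatory T cells, where the Ikaros family protein Helios, from Ikzf2, is also common. Blimp-1, from Prdm1, represses resting-cell genes in effector cells, and Id2 holds back E proteins and is needed for NK and effector cells.

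The tumours were YUMM1.7, a cultured mouse melanoma line, grown from 500000 cells injected under the skin of mice that were 4, 12 or 20 months old. Tumours were taken after 18 days, and live CD45+ cells, that is leukocytes, were sorted with an antibody to CD45.2 as DAPI-negative cells. A single PIP-seq library, in which cells are captured with barcoded beads in an emulsion and the 3′ end of transcripts is read, was made for each age, and 7 mice were used per age. All hosts carried the same tumour line, and the host's strain and sex, and whether the 7 mice were pooled, are not given in the sources used here.

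With 1 library per age there was no replicate of an age, so no test of an age difference was possible and none is given. Levels are given as CPM, the summed counts of a gene over the cells of a class per 1000000 counts of that class in that library. Intervals are exact 95% intervals that cover counting error only, not the difference between mice. A ratio is written as past the mark where the gene reached 20 CPM in either library and differed by 1.5-fold or more. Differences between ages are differences between these libraries.

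Between 14393 and 14684 cells per library carried 110371225 counts at 4 months, 127850782 at 12 months and 119873564 at 20 months, and any pair of libraries shared 2 to 4 cell barcodes. Clusters were built and named without the 9 genes. The 38 other factors and 23 described targets followed below were also left out of the clustering, but some of these targets were naming markers. Other genes that vary with the 9 were kept, so differences between classes are descriptions. CD8 T-like cells numbered 3642, 5090 and 5420 at 4, 12 and 20 months, regulatory T-like cells 773, 671 and 512, and NK-like cells 2283, 2021 and 1589. Gamma-delta T-like cells numbered 67, 79 and 88, and conventional CD4 T-like cells only 11, 64 and 24, so that 1 count in the CD4 cells of the 4-month library was worth 16.3 CPM. A T cell sub-cluster led by Klra6, Nsg2, Trdc and Trgc1, with 622, 853 and 246 cells, mixed genes of several classes and was left unnamed. The cell type is labelled as melanoma, while the markers found were those of leukocytes: Cd3e lay at 480 to 573 CPM in CD8 T-like cells, and Ncr1, an NK receptor, at 666 to 752 CPM in NK-like cells.

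The 250 bases before the annotated start of 4 of the genes are shown because these genes separate the classes or move with age below. The letters searched on both strands were AGGTGTGA for T-box proteins, TGTGGT for RUNX, CAGGTG for the E-box read by ZEB proteins and AGATAA for GATA. The T-box and E-box letters share the run AGGTG, so a site can count for both. Of 32851 windows of the same length, 1.12%, 14%, 17.2% and 9.99% held them, in that order. Of the 13 windows found for 8 of the 9 genes, 0, 1, 3 and 1 held them. Capitals mark the matches, the sequences are those of RefSeq on build GRCm38.p6, and each reads in the direction of the gene.
Eomes, chr9:118477939-118478188, plus strand, no match: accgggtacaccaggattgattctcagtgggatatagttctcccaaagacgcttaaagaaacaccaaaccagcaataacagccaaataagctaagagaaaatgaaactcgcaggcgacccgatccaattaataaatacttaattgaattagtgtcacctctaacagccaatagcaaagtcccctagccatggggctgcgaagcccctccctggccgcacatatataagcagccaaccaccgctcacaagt
Tbx21, chr11:97115332-97115581, minus strand, E-box 196 bases before the start: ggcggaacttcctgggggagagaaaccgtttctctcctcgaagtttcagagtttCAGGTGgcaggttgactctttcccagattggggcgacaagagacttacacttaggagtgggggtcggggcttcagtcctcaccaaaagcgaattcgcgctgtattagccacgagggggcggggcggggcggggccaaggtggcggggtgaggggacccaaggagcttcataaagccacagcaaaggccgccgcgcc
Runx3, chr4:135120395-135120644, plus strand, E-box 233 and RUNX letters on the other strand 134 and 126 bases before the start: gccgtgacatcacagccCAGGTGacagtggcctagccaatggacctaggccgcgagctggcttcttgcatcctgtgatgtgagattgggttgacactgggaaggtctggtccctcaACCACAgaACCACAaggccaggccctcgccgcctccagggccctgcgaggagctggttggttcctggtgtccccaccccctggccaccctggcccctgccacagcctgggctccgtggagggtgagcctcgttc
Foxp3, the downstream of its start sites, chrX:7580233-7580482, plus strand, GATA letters 47 bases before the start: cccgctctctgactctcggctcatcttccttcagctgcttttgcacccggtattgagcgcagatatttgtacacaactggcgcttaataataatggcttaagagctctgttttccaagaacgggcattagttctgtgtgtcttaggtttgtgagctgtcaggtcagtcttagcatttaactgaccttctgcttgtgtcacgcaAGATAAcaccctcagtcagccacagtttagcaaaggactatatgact
Prdm1 held the third E-box match, 87 bases before its start, and the windows of Gata3, Zeb2 and Id2 held none of the motifs. These are matches of letters and not measured binding sites.

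The genes lie on build GRCm38 at chr11:97098071-97115331 (Tbx21), chr9:118478212-118486132 (Eomes), chr4:135120652-135177990 (Runx3), chr2:9857078-9890034 (Gata3) and chrX:7573644-7595245 (Foxp3). The others lie at chr2:44983632-45117395 (Zeb2), chr10:44437177-44528501 (Prdm1), chr1:69531214-69687245 (Ikzf2) and chr12:25093799-25097140 (Id2). All are protein-coding, and counts are per whole gene. Tbx21, Prdm1 and Id2 overlap no other annotated gene, while the remaining 6 overlap between 1 and 5. How the counting used strand is not given in the sources used here, so reads of overlapping genes may be split in an unknown way. The one overlapping gene with a clear level beside Foxp3 was Gm36995, on the opposite strand, at 23.2, 23.2 and 23.7 CPM in regulatory T-like cells.

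Monocyte/macrophage-like cells, which should lack T and NK receptor genes, held counts of them. The median of 9 such genes stood at 21.4%, 24.5% and 23.4% of the library-wide mean at 4, 12 and 20 months. Single genes ran from 17.2% (Trac, 4 months) to 34.7% (Cd3e, 20 months). Where these counts came from was not tested. The median share, taken of each factor's own library mean, is its estimated background level. In CD8 T-like cells Tbx21 stood 5.62 to 7.57 times above that level and Id2 5.43 to 7.10 times, whereas Zeb2 stood at 0.798 to 0.845 times. Foxp3, at 1.84 to 2.47 times, and Ikzf2, at 2.12 to 2.64 times, were the next closest to it. In NK-like cells Eomes stood 10.8 to 15.2 times above its background level and Zeb2 at 0.920 to 1.02 times.

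**Figure D1:**
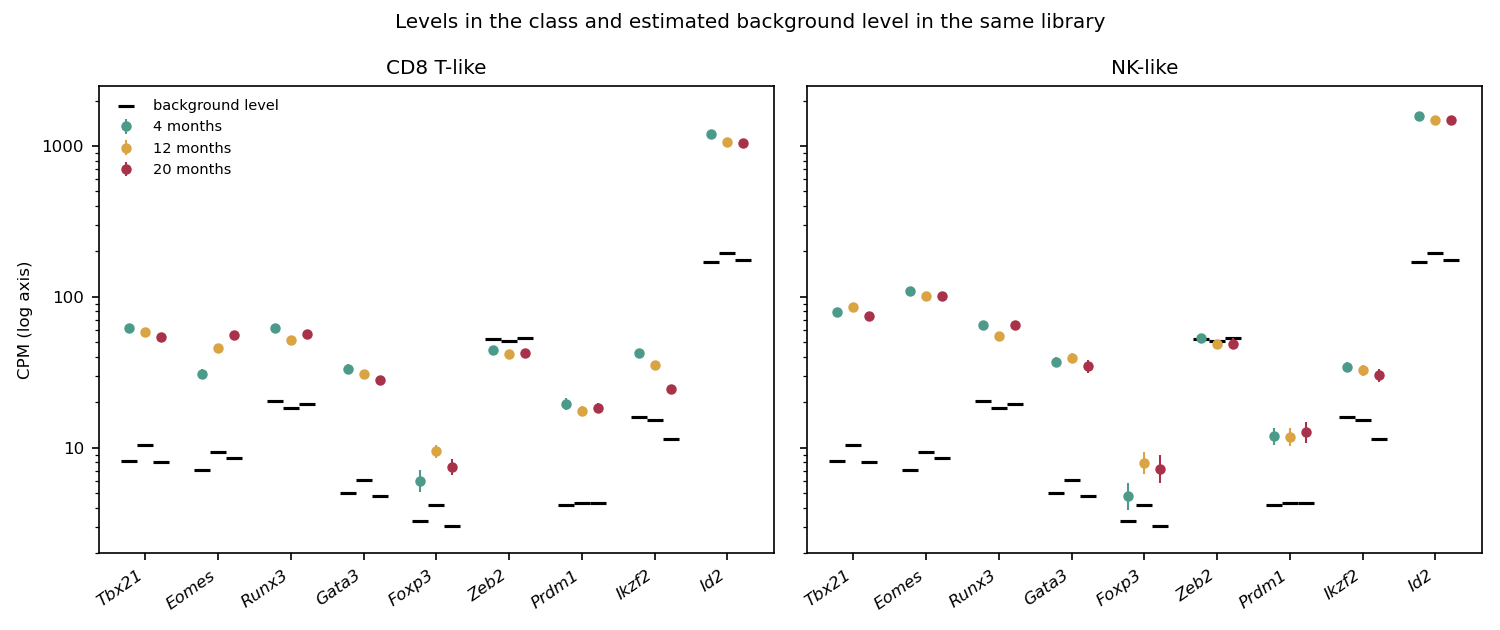
Level of each of the 9 factors in CD8 T-like (left) and NK-like (right) cells, in CPM on a log axis, 1 point per library with its 95% counting interval, and the estimated background level of the same library as a black dash. Zeb2 lies at or under the dash in both classes, and the other 8 factors lie above it.

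Eomes differed most of the 9 between NK and CD8 cells, and in CD8 cells it differed most between ages. In NK-like cells it measured 109, 101 and 102 CPM at 4, 12 and 20 months, so the 3 libraries lay close together. The log2 ratios to 4 months were -0.10 (-0.20 to -0.01) and -0.09 (-0.19 to 0.01). In CD8 T-like cells it measured 30.9, 45.9 and 56.2 CPM. The 3 CD8 intervals, 28.7 to 33.2, 43.8 to 48.1 and 53.8 to 58.6 CPM, did not overlap. The CD8 log2 ratio was 0.57 (0.44 to 0.70) for the 12-month library, just short of the mark, and 0.86 (0.74 to 0.99) for the 20-month library, past it. Of all genes tested in CD8 T-like cells, 2% were past the mark upward at 12 months and 2.56% at 20 months. NK-like cells exceeded CD8 T-like cells by 1.81, 1.14 and 0.86 on the log2 scale at 4, 12 and 20 months, so the gap was smaller at each later age (mean 1.27 ± 0.49, SD over 3 libraries). Genes past 1.5-fold in all 3 libraries for this pair made up 4.66% of those tested.

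The share of cells with an Eomes count showed the same order. After every cell was thinned to 3500 counts, 9.28%, 13.3% and 16.8% of CD8 T-like cells and 30.4%, 29.1% and 29.8% of NK-like cells had a count, against 1.91%, 2.23% and 2.50% of monocyte/macrophage-like cells. Before thinning the CD8 shares were 14.9%, 24.0% and 26.9%, at median depths of 5236 to 6140 counts in CD8 T-like and 8234 to 9124 in monocyte/macrophage-like cells. Regulatory T-like cells, with 7.52, 7.86 and 8.55 CPM, and monocyte/macrophage-like cells, with 5.74, 7.12 and 7.76 CPM, had Eomes at similar low levels. The order of classes by mean was NK-like, unnamed T, CD8 T-like and then the others, and the CD8 and unnamed T ranges, 30.9 to 56.2 and 50.7 to 68.5 CPM, overlapped.

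Within CD8 T-like cells Eomes was higher at 20 than at 4 months in all 7 sub-clusters with 50 or more cells in every library, and the interval of the ratio left 0 out in 5 of them. In the sub-cluster led by Pdcd1, the gene for the inhibitory receptor PD-1, Eomes measured 21.6, 39.0 and 56.8 CPM, a log2 ratio of 1.40 at 20 months (1.10 to 1.70). In the sub-cluster led by Dapl1, a gene of resting T cells, it measured 47.2, 57.5 and 62.9 CPM, a ratio of 0.42 (0.17 to 0.67). Dividing cells, led by histone genes, had 30.4, 48.9 and 57.2 CPM. The Dapl1-led cells, which carried the most Eomes of these at 4 months, made up 13.7%, 20.7% and 36.9% of CD8 T-like cells. Leaving out sub-clusters led by resting genes gave a ratio of 0.89 at 20 months, and the lowest value of the settings run, from a gate on surface genes in each cell, gave 0.61. In NK-like cells the main sub-cluster, led by Klra4, Klra8 and Ncr1, had 112, 105 and 102 CPM, and a small one led by granzyme genes (Gzmd, Gzmf and Gzme) had less, 83.0, 48.2 and 78.4 CPM, on 62, 94 and 75 cells.

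**Figure D2:**
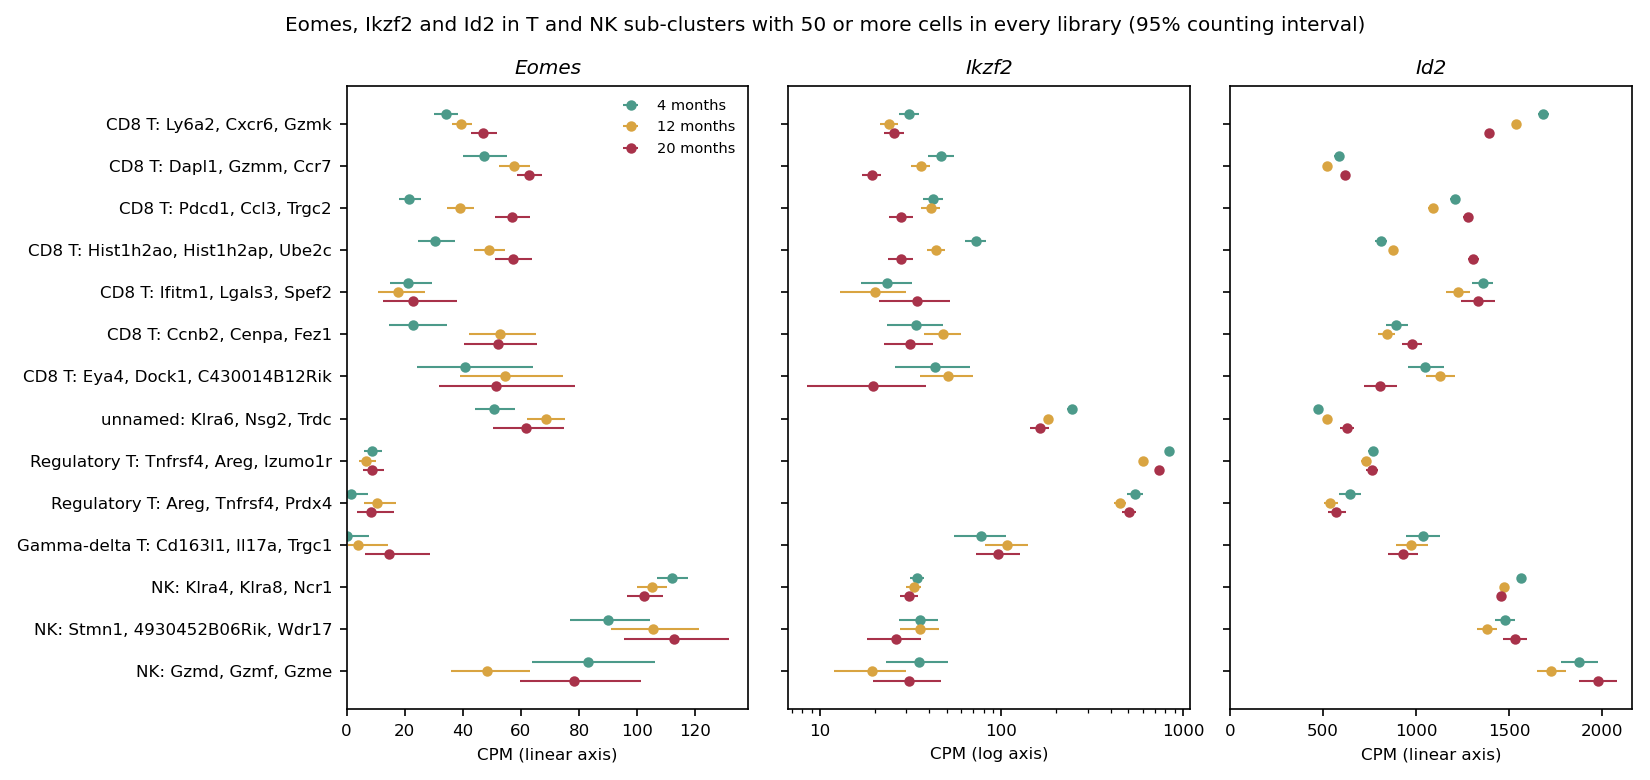
Eomes, Ikzf2 and Id2 in T and NK sub-clusters with 50 or more cells in each of the 3 libraries, in CPM (linear axis for Eomes and Id2, log axis for Ikzf2), 1 point per library with its 95% counting interval and each row named by class and its leading genes. Eomes at 20 months lies above 4 months in each of the 7 CD8 rows, and Ikzf2 below it in 6 of them.

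Tbx21 changed little with age in NK-like and CD8 T-like cells, and by mean over the 3 libraries it was highest in NK-like cells. It measured 79.6, 85.4 and 75.0 CPM there at 4, 12 and 20 months, and 61.7, 58.3 and 54.6 CPM in CD8 T-like cells. The NK range lay above the CD8 range, by 0.37, 0.55 and 0.46 on the log2 scale in the 3 libraries (mean 0.46 ± 0.09, SD, n = 3 libraries), under the 1.5-fold mark. The CD8 ratio to 4 months was -0.08 at 12 and -0.18 (-0.28 to -0.08) at 20 months, beside a median of -0.11 over all genes tested at 20 months. The unnamed T sub-cluster, at 45.9, 54.0 and 57.5 CPM, overlapped the CD8 range, and regulatory T-like cells had 24.1, 20.1 and 21.0 CPM. CD4 T-like cells had 49.0, 44.0 and 75.8 CPM on 3, 20 and 12 counts, so their 20-month value was near that of NK-like cells. Thinned shares were 25.2%, 26.2% and 22.3% of NK-like cells (44.2%, 49.4% and 39.3% unthinned) and 19.7%, 19.4% and 17.3% of CD8 T-like cells, against 3.59%, 4.26% and 3.03% in monocyte/macrophage-like cells.

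Tbx21 was close to absent in gamma-delta T-like cells, which were led by Cd163l1 and Il17a, genes of interleukin-17 producers. There were 0 counts at 4 months, where 3 counts would make 6.13 CPM, and 13.7 and 9.08 CPM at 12 and 20 months. Its level there overlapped that of monocyte/macrophage-like cells, 9.57, 12.3 and 8.87 CPM. Of the 7 larger CD8 sub-clusters, the one led by Ifitm1 had the most Tbx21, at 77.6, 90.3 and 86.0 CPM, and the least Eomes, at 21.3, 17.6 and 22.7 CPM. In the Dapl1-led sub-cluster, which had the most Eomes of the 7, Tbx21 was at 42.0, 40.4 and 45.3 CPM.

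Tbx21 and Eomes were found together in single cells about as often as their separate shares give. In thinned NK-like cells 7.67%, 7.97% and 6.55% had both, beside products of the single shares of 7.67%, 7.63% and 6.65%. In CD8 T-like cells the values were 1.68%, 2.48% and 2.64% beside 1.83%, 2.58% and 2.90%. At a few counts per gene this describes the counts and does not show which cells make both proteins.

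Zeb2 lay under its estimated background level in CD8 T-like cells and near it in NK-like cells. It measured 381, 434 and 409 CPM in monocyte/macrophage-like cells at 4, 12 and 20 months, 44.6, 41.9 and 42.5 CPM in CD8 T-like cells and 53.6, 48.7 and 49.0 CPM in NK-like cells. In CD8 T-like cells it stood at 18.1%, 20.1% and 18.7% of its library mean, and the median of 11 macrophage markers in the same cells was 17.6%, 20.3% and 18.1%. NK-like cells stood at 21.8%, 23.3% and 21.6% for Zeb2, above the marker medians of 16.4%, 19.0% and 18.1% in each library. Single markers varied widely, at 4 months from 13.8% to 133% in CD8 T-like and from 13.0% to 118% in NK-like cells. Ly6c2, a marker in that set, was also among the leading genes of the CD8 sub-cluster led by Ly6a2. Zeb2 was higher in NK-like than in CD8 T-like cells by 0.27, 0.22 and 0.21 on the log2 scale, with each interval above 0. What background counts add to that gap was not tested. CD4 T-like cells had 65.3, 79.2 and 37.9 CPM on 4, 36 and 6 counts, and the 12-month interval, 55.5 to 110 CPM, lay above the background level of 51.2 CPM. No age ratio of Zeb2 in CD8, regulatory or NK-like cells was past the mark.

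Runx3 was at like levels in CD8, NK and gamma-delta cells. It measured 62.2, 52.0 and 57.0 CPM in CD8 T-like cells, 64.7, 55.2 and 64.7 CPM in NK-like cells and 49.0, 62.7 and 65.4 CPM in gamma-delta T-like cells. These 3 ranges overlapped. Regulatory T-like cells had less, 39.2, 29.9 and 30.6 CPM, and their range lay under all 3. Myeloid cells had more: 117, 102 and 94.7 CPM in monocyte/macrophage-like cells. Runx3 stood at 1.92, 1.62 and 1.57 times its estimated background level in regulatory T-like cells. In CD8 T-like cells it stood at 3.1, 2.8 and 2.9 times. What background counts add to these levels was not tested. The 12-month library was low in both CD8 (-0.26, from -0.36 to -0.16) and NK-like cells (-0.23, from -0.35 to -0.11), and the 20-month values were -0.13 and 0.00. CD8 T-like over conventional CD4 T-like cells gave 0.93, -0.08 and 1.17 in the 3 libraries (mean 0.67 ± 0.67, SD), with each interval spanning 0, on 2, 25 and 4 CD4 counts. For that pair 3.71% of genes were higher by 1.5-fold in all 3 libraries, and Runx3 was not among them.

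Id2 was at its highest in NK-like cells. It measured 1571, 1485 and 1495 CPM there, 1208, 1065 and 1048 CPM in CD8 T-like cells and 747, 676 and 713 CPM in regulatory T-like cells at 4, 12 and 20 months. The ranges of these 3 classes did not overlap, and the NK excess over CD8 was 0.38, 0.48 and 0.51 on the log2 scale (mean 0.46 ± 0.07, SD, n = 3 libraries). Monocyte/macrophage-like cells had 240, 269 and 258 CPM. CD8 T-like cells at 20 months stood at -0.20 (-0.23 to -0.18) against 4 months, where the median gene stood at -0.11. By sub-cluster the Ly6a2-led cells had 1685, 1537 and 1393 CPM and the Dapl1-led cells 584, 522 and 616 CPM. Histone-led dividing CD8 cells had 812, 878 and 1309 CPM (a ratio of 0.69, from 0.62 to 0.75). Within the 7 larger CD8 sub-clusters Id2 was higher at 20 than at 4 months in 4, each with its interval above 0, and lower in 3, so the lower level of the whole class was not shared by most of its sub-clusters. The Dapl1-led cells, which had the lowest Id2 of the 7 in every library, went from 13.7% to 36.9% of the class between 4 and 20 months. Over the 16 settings run, the class ratio at 20 months ran from -0.34 to 0.018. Leaving out sub-clusters led by resting genes was 1 of these settings, and the part of the Dapl1-led cells was not tested further.

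Id2 in the unnamed T sub-cluster measured 473, 520 and 627 CPM, under the level of each of the 5 named classes taken whole, and it was higher at each later age. Id3, the related inhibitor kept by resting T cells, measured 55.3, 30.7 and 18.8 CPM in the same cells. Eomes there measured 50.7, 68.5 and 61.8 CPM and Prdm1 5.05, 7.92 and 8.48 CPM. The sub-cluster held 622, 853 and 246 cells.

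**Figure D3:**
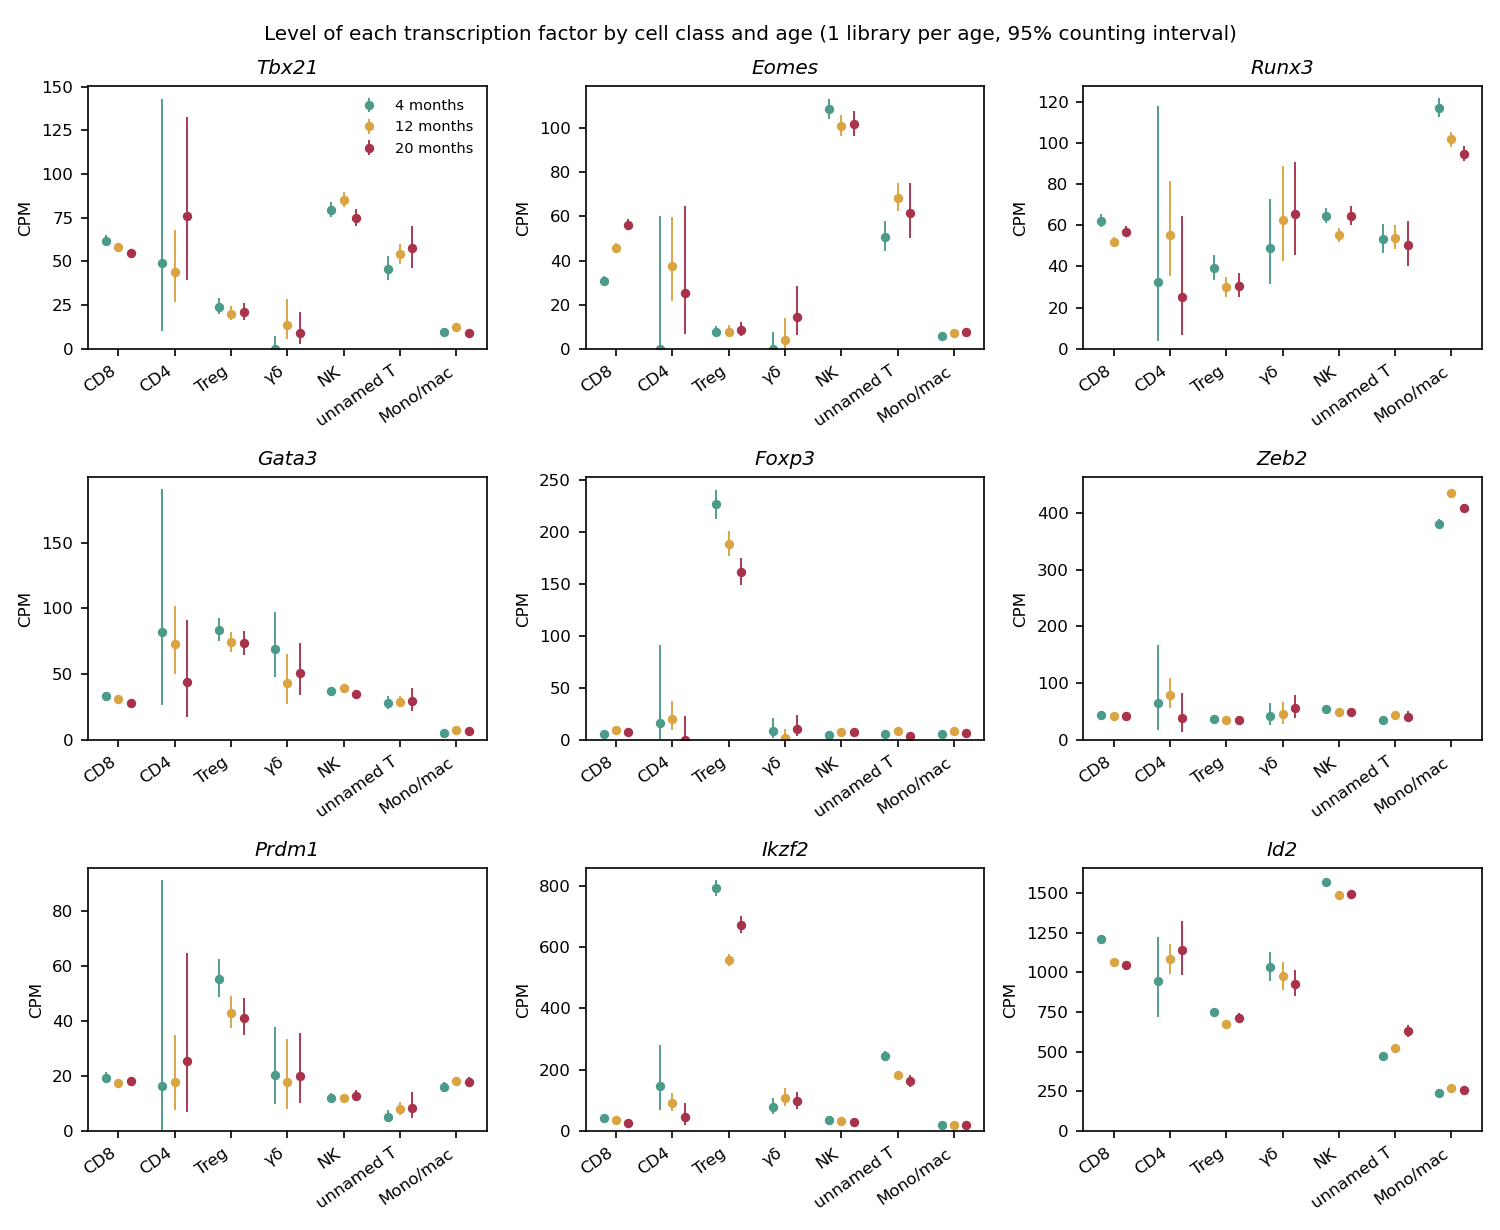
Level of each of the 9 factors in CPM (linear axis from 0) in CD8, CD4, regulatory (Treg), gamma-delta, NK-like, unnamed T and monocyte/macrophage-like cells, 1 point per library with its 95% counting interval. Foxp3 and Ikzf2 stand out in regulatory T-like cells, Eomes in NK-like cells, and Zeb2 and Runx3 in monocyte/macrophage-like cells. Tbx21 is highest by mean in NK-like cells, and its 20-month CD4 point, on 12 counts, lies near the NK-like points.

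Foxp3 was high in regulatory T-like cells and low in every other class. It measured 226, 188 and 162 CPM in regulatory T-like cells at 4, 12 and 20 months, and 5.47, 8.88 and 7.01 CPM in monocyte/macrophage-like cells. CD8 T-like cells had 6.01, 9.44 and 7.45 CPM and NK-like cells 4.77, 7.89 and 7.22 CPM, close to the monocyte/macrophage level of their own library. The 3 regulatory intervals, 213 to 241, 177 to 200.4 and 149 to 175 CPM, did not overlap. The ratios were -0.27 (-0.39 to -0.14) and -0.49 (-0.64 to -0.34) on the log2 scale, short of the 1.5-fold mark. Gm36995, the overlapping gene, stayed between 23.2 and 23.7 CPM in the same cells. Thinned shares of cells with a Foxp3 count were 49.9%, 46.9% and 44.5% (63.4%, 69.4% and 64.3% unthinned), beside 1.71%, 2.90% and 2.56% in monocyte/macrophage-like cells. The thinned and unthinned shares differ in order, and the intervals of the thinned shares overlap, so no order is read from shares.

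The lower Foxp3 level was seen in both sub-clusters of regulatory T-like cells. The larger one, led by Tnfrsf4, Areg and Izumo1r, had 244, 212 and 181 CPM, a ratio at 20 months of -0.43 (-0.59 to -0.27). The smaller one, led by Areg, Tnfrsf4 and Prdx4, had 138, 130.0 and 108 CPM, a ratio of -0.35 (-0.76 to 0.05). The smaller one made up 8.02%, 17.0% and 18.0% of the class. Leaving out cells under 5000 counts moved the ratio to -0.61, the one setting of those run that put it past the mark.

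Ikzf2 was the second mark of regulatory T-like cells, yet its age pattern differed from that of Foxp3. It measured 791, 556 and 672 CPM there, lowest in the 12-month library, with ratios of -0.51 (-0.58 to -0.44) and -0.23 (-0.31 to -0.16). The dip at 12 months was present in both sub-clusters, 839, 600 and 733 CPM in the larger and 546, 450 and 504 CPM in the smaller. Thinned shares were 84.3%, 78.8% and 84.6%. The unnamed T sub-cluster came next at 245, 181 and 163 CPM. Gamma-delta T-like cells had 77.6, 108 and 96.2 CPM, and CD4 T-like cells 147, 90.3 and 44.2 CPM on 9, 41 and 7 counts. In the unnamed sub-cluster the 20-month ratio, -0.59 (-0.79 to -0.40), was past the mark, as were 5.73% of its genes downward. Foxp3 and Ikzf2 counts fell in the same thinned regulatory cell in 43.3%, 39.3% and 38.3% of cells, beside products of 42.1%, 37.0% and 37.7%.

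Ikzf2 was also lower in CD8 T-like cells at each later age. It measured 42.1, 35.5 and 24.3 CPM, and the 3 intervals did not overlap (39.6 to 44.8, 33.7 to 37.5 and 22.8 to 26.0 CPM). The log2 ratios to 4 months were -0.25 (-0.37 to -0.13) and -0.79 (-0.92 to -0.66), and the second was past the mark. Of all genes tested in these cells, 1.57% were past the mark downward at 20 months. The 20-month level came near the 18.1 CPM of monocyte/macrophage-like cells in that library, and a count remained after thinning in 401 of 3642, 487 of 5090 and 392 of 5420 cells. In monocyte/macrophage-like cells the thinned shares were 6.81%, 7.12% and 6.71%. NK-like cells had 34.3, 32.6 and 30.1 CPM, with ratios of -0.07 and -0.19. The difference between CD8 and NK-like cells in this age ratio was not tested.

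Within CD8 T-like cells Ikzf2 was lower at 20 than at 4 months in 6 of 7 sub-clusters, with the interval below 0 in 4. Histone-led dividing cells had 72.2, 43.5 and 27.9 CPM (-1.37, from -1.67 to -1.08), and Dapl1-led cells 46.6, 35.9 and 19.3 CPM (-1.27, from -1.56 to -0.98). The other sub-cluster led by genes of cell division, Ccnb2 and Cenpa, had 34.0, 47.7 and 31.2 CPM, a ratio of -0.13 (-0.81 to 0.57). The Ifitm1-led cells were the exception in direction, at 23.6, 20.1 and 34.1 CPM. Genes of the unnamed T sub-cluster moved in these cells as well: Klra6, an NK-type receptor gene, measured 14.4, 8.82 and 5.58 CPM in the histone-led cells and 13.5, 20.7 and 9.12 CPM in Dapl1-led cells. Trdc, the delta receptor constant gene, measured 41.8, 26.4 and 177 CPM in Dapl1-led cells. Their part in the Ikzf2 result was looked at only by leaving out cells with such counts. In the CD8 T-like cells without a count of Klra6, Klra1, Trdc or Trgc1, which left out 676, 1345 and 1491 cells, Ikzf2 measured 34.5, 31.1 and 22.5 CPM, a ratio of -0.62, and Eomes had a ratio of 0.83. In the whole class these 20-month ratios were -0.79 and 0.86. Settings that placed other cells in the class gave ratios of Ikzf2 from -1.39, for cells with at least 5000 counts, to -0.60, without the sub-clusters led by resting genes.

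**Figure D4:**
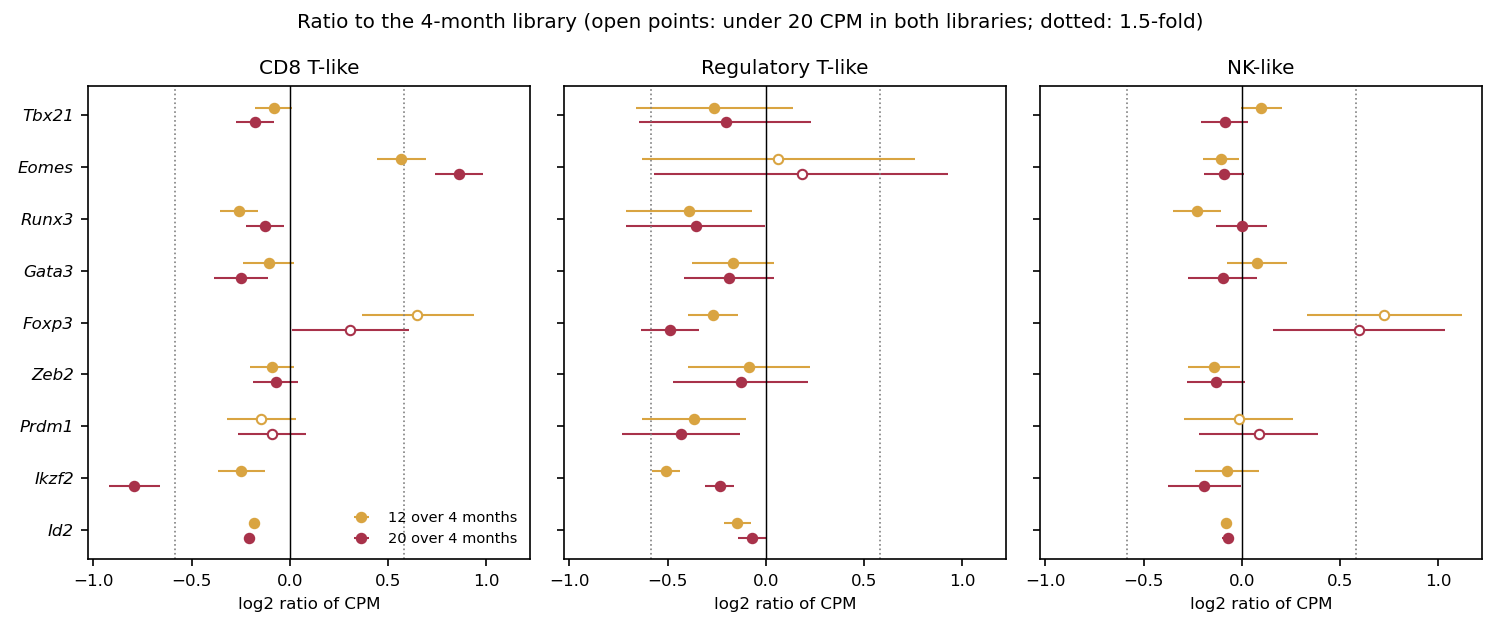
Log2 ratio of CPM to the 4-month library for each of the 9 factors in CD8, regulatory T-like and NK-like cells, at 12 and 20 months, with 95% counting intervals; dotted lines mark 1.5-fold and open points are under 20 CPM in both libraries. Past the dotted lines with filled points are only Eomes (0.86) and Ikzf2 (-0.79), both in CD8 T-like cells at 20 months.

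Gata3 was high in regulatory T-like cells, at 83.4, 74.4 and 73.3 CPM, and in conventional CD4 T-like cells, at 81.6, 72.6 and 44.2 CPM on 5, 33 and 7 counts, with overlapping intervals in each library. Gamma-delta T-like cells had 69.5, 43.1 and 50.8 CPM and exceeded CD8 T-like cells by 1.07, 0.48 and 0.86 on the log2 scale (mean 0.80 ± 0.29, SD, n = 3 libraries), and the interval reached 0 in the 12-month library. For that pair 7.41% of genes were past 1.5-fold in all 3 libraries. NK-like cells had 37.0, 39.1 and 34.7 CPM and CD8 T-like cells 33.2, 30.8 and 28.0 CPM, with ranges that did not overlap. Gata3 and Foxp3 counts met in 13.1%, 9.69% and 10.2% of thinned regulatory cells, beside products of 12.9%, 10.0% and 9.83%.

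Prdm1 had its highest levels in regulatory T-like cells, at 55.3, 42.9 and 41.1 CPM, with ratios of -0.37 (-0.63 to -0.10) and -0.43 (-0.73 to -0.13). CD8 T-like cells had 19.4, 17.6 and 18.2 CPM and monocyte/macrophage-like cells 15.9, 18.0 and 17.9 CPM, with overlapping ranges. NK-like cells had 11.9, 11.8 and 12.7 CPM. Regulatory over conventional CD4 T-like cells gave mean log2 ratios of 2.99 ± 0.81 for Ikzf2, 1.25 ± 0.53 for Prdm1 and 0.27 ± 0.40 for Gata3 (SD, n = 3 libraries). Foxp3 gave 3.79 and 3.25 in the 4-month and 12-month libraries, and in the 20-month CD4 cells it had 0 counts, where 3 counts would make 18.9 CPM. For this pair 6.03% of genes were higher by 1.5-fold in all 3 libraries. The CD4 counts behind these ratios were 1, 9 and 0 for Foxp3, 9, 41 and 7 for Ikzf2 and 1, 8 and 4 for Prdm1.

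Counted over the 9 factors in the 5 named classes, that is 45 pairs of which 36 reached 20 CPM, 3 were past the mark upward and 4 downward at 20 months. The upward ones were Eomes in CD8 and Tbx21 and Prdm1 in CD4 T-like cells. The downward ones were Ikzf2 in CD8 and Gata3, Zeb2 and Ikzf2 in CD4 T-like cells. In CD4 T-like cells 22.4% of all genes were past the mark upward and 31.6% downward, so that calls in those 24 and 11 cells describe few counts. Without CD4 T-like cells 1 upward and 1 downward pair was left. At 12 months 1 of 35 pairs was past the mark upward, Runx3 in CD4 T-like cells, and 2 downward, Ikzf2 in CD4 and Gata3 in gamma-delta T-like cells, where 19.1%, 26.7% and 14.3% of all genes were. None was past it downward in CD8 T-like cells at 12 months, where 0.73% of genes were.

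In regulatory T-like cells no factor was past the mark, where 3.27% of genes were upward and 2.37% downward at 12 months and 3.93% and 2.61% at 20 months. In NK-like cells none was, beside 2.11% and 0.628% at 12 months and 1.73% and 0.49% at 20 months. In gamma-delta T-like cells none was upward at either age, beside 13.7% and 13.8% of genes. The unnamed T sub-cluster had Ikzf2 downward at 20 months and no other factor, beside 2.05% upward and 2.07% downward at 12 months and 3.62% upward at 20 months. Monocyte/macrophage-like cells had none, beside 2.4% and 0.538% at 12 months and 1.65% and 1.17% at 20 months. Set directly against the 12-month library, the 20-month library had factors past the mark in CD4 T-like cells alone: Tbx21 upward and Runx3, Gata3, Zeb2 and Ikzf2 downward, where 19.5% and 22.4% of genes were. That comparison had 0.568% and 0.947% of genes up and down in CD8 T-like, 1.69% and 1.28% in regulatory, 0.454% and 0.559% in NK-like, 11.8% and 13% in gamma-delta, 2.81% and 2.54% in unnamed T and 0.541% and 1.11% in monocyte/macrophage-like cells.

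Of 38 other lymphocyte transcription factors, 26 reached 20 CPM in CD8 T-like cells, and 3 were past the mark upward and 2 downward at 20 months (median -0.01, beside -0.11 over all genes). Satb1, a chromatin organiser of resting T cells, stood at 42.4 and 68.2 CPM at 4 and 20 months, and Zbtb32, a repressor in activated lymphocytes, at 21.9 and 12.1 CPM. Maf, a regulator of interleukin-10, stood at 27.7 and 57.5 CPM, while in monocyte/macrophage-like cells it went from 122 to 247 CPM. Irf8 stood at 61.4 and 36.6 CPM in CD8 T-like and at 134 and 117 CPM in monocyte/macrophage-like cells. What background counts add to the Maf and Irf8 values was not tested. None of 27 was past the mark in regulatory and none of 23 in NK-like cells. In gamma-delta T-like cells 9 of 29 were upward, led by Bach2, Lef1, Tox and Foxo1, and 1 downward, where 13.8% and 16.8% of all genes were. CD4 T-like cells had 7 of 25 upward and 4 downward, led by Id3, Runx1, Tsc22d3 and Runx2, where 22.4% and 31.6% of all genes were, on 11 and 24 cells.

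Of 23 genes described as targets of the factors, 19 reached 20 CPM in CD8 T-like cells, and 1 was upward and 3 downward at 20 months (median -0.18), where 2.56% and 1.57% of all genes were. Ifng, a classical target of T-bet and Eomesodermin, measured 389 and 177 CPM at 4 and 20 months. Gzma measured 640 and 164 CPM, and 190 and 62.8 CPM in monocyte/macrophage-like cells. Gzmb measured 4120 and 2611 CPM, and Ccr7, a homing receptor that Blimp-1 represses, 64.3 and 114 CPM. The Dapl1-led sub-cluster, which has Ccr7 among its leading genes, made up 13.7% of CD8 T-like cells at 4 and 36.9% at 20 months. Its part in these CD8 differences, and in that of Satb1 above, was not tested. Of 17 targets tested in NK-like cells 2 were upward and 2 downward, where 1.73% and 0.49% of all genes were. Ifng measured 162 and 88.2 CPM in NK-like and 35.4 and 25.3 CPM in monocyte/macrophage-like cells, and Gzma 3721 and 2311 CPM in NK-like cells. The upward targets, Il7r with 9.76 and 24.4 CPM and Cxcr6 with 47.3 and 76.2 CPM, were near their levels in monocyte/macrophage-like cells, 10.7 and 20.4 CPM for Il7r and 46.9 and 65.8 CPM for Cxcr6. Of 22 targets tested in regulatory T-like cells, where 3.93% and 2.61% of all genes were upward and downward, 0 were upward and 3 downward, among them Itgae with 102 and 55.4 CPM and Gzma with 215 and 91.3 CPM. Gamma-delta T-like cells had 2 of 21 upward and 5 downward, led by Areg, Gzma, Ccr7 and Cxcr3, beside 13.8% and 16.8% of all genes. Gzma measured 198 and 67.2 CPM in these cells. Its levels in gamma-delta and regulatory T-like cells stand beside 190 and 62.8 CPM in monocyte/macrophage-like cells. What background counts add to these Gzma values was not tested. CD4 T-like cells had 3 of 21 upward and 10 downward, led by Klrg1, Itgae, Il2ra and Ccr7, beside 22.4% and 31.6% of all genes and on 11 and 24 cells.

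The genes whose levels ran most like each factor over the 15 class-by-library profiles, by Pearson's r of log2(CPM + 10) among 4776 genes at 50 CPM or more in a profile, are given as a description. Profiles of the same library may share background counts and depth, and profiles of the same class share cells of a kind. For Foxp3 they were Ncmap (r = 0.97), Arl5a and Ddit4, and for Eomes Samd3 (0.97), Rpl3 and Crtam. For Tbx21 they were Sh2d1a (0.93), Lrmp and Rpl37rt, for Ikzf2 Slc16a3 (0.96), Ctsz and Ass1, and for Id2 Evl (0.96), Rpl13 and Gm2000. For Gata3 they were Rab11a (0.93), Slc15a3 and Spcs1, for Prdm1 Trp53i11 (0.94), Gm50237 and Nfkbid, for Runx3 Fmc1 (0.91), Evi2b and Mgat4a, and for Zeb2 Sms (0.85), Alkbh1 and Map3k8. The CD4 profiles rest on few counts. Over the 12 profiles without them the genes were others for most factors: Neurl3, Slamf7 and Nkg7 for Tbx21, Lrrk1, Samd3 and Arsb for Eomes, Cd4, Ncmap and Tnfrsf4 for Foxp3, and Tspan32, Samsn1 and Rilpl2 for Ikzf2.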

How the data were processed

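For every library the authors deposited unnormalized gene-by-cell counts, whole numbers with a lowest total of 3555, 4493 and 4356 counts per cell. Reads were aligned with STAR 2.7.10a to GRCm38, per the submitters' processing notes; whether molecular tags were collapsed and how strand was used are not given in the sources used here. The members and the gene lists were chosen with earlier results of these data known.

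Cells above 15% mitochondrial counts were removed (2 in all), as were the 6% of cells with the highest simulated-doublet score in each library (863, 879 and 881), a fixed share, since the labels state no doublet step. Cells were clustered on 2000 variable genes and 30 components (Python 3.11.15, scikit-learn 1.9.0, leidenalg 0.10.2, resolution 1). The 9 genes, the 38 other factors and the 23 described targets were left out of the clustering. T and NK sub-clusters were named from marker lists, and details of that naming rule were set after the clusters were seen. Class counts were summed per library and divided by the class total. CPM have exact Poisson intervals, ratios exact conditional binomial ones and shares Clopper-Pearson ones. For the 1.5-fold mark alone, a count of 0 was set to 3 counts. Ratios and calls were checked on simulated counts with known changes and counting error only, so differences between mice or libraries were not covered.

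All 9 genes are named in every class. From each of 2 lists (38 other factors, 23 described targets) up to 4 genes per class are named, those with the largest 20-month ratio past the mark. One gene that this rule names is not reported here. The 3 genes most like each factor are those with the highest Pearson correlation. Gene positions are from GENCODE M21, which held 98.1% of the 55401 identifiers with the same version; Zeb2 was matched without it. No p-value was computed, because each age had 1 library. Alternatives to cell filters, naming, scaling and background are given in the closing section. The stricter naming, the subtraction of a share of the library mean, the count without CD4 T-like cells, the likeness over 12 profiles and the CD8 cells without a count of 4 receptor genes were chosen after seeing the data.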

Additional observations from a re-analysis of the deposited data

Results flagged for a closer look

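The age ratios of Id2 had opposite signs in some lymphocyte classes. In the unnamed T sub-cluster led by Klra6, Nsg2, Trdc and Trgc1 the 12-month and 20-month libraries were both above the 4-month library, by 0.14 and 0.41 on the log2 scale. In CD8 T-like cells both were below it, at -0.18 and -0.20, and in NK-like cells both were below it, at -0.081 and -0.071. With 1 library per age the difference was not tested. The CD8 ratio at 20 months and both NK-like ratios each kept their sign in 15 of the 16 settings run. The NK-like value at 20 months was close to the median of all genes there, -0.065. Sub-clusters did not all share the sign of their class: the 20-month library exceeded the 4-month library for Id2 in 4 of 7 CD8 and 2 of 3 NK sub-clusters of 50 or more cells in every library. The sub-cluster held 622, 853 and 246 cells, and its make-up may differ between libraries: Trdc measured 356, 232 and 199 CPM in it and Id3 55.3, 30.7 and 18.8 CPM.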

How the results depend on the processing

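No paired analysis was possible because each age had 1 library. With 1 library per age, the counts of factor and class pairs past 1.5-fold rest largely on CD4 T-like cells (11, 64 and 24 cells); in the order higher at 12, lower at 12, higher at 20 and lower at 20 months they were 1, 2, 3 and 4, and 0, 1, 1 and 1 without those cells. A gate on surface genes per cell gave 3 higher and 5 lower at 12 and 5 higher at 20 months. Clustering each library alone gave 0, 0, 1 and 1. Removing no doublets gave 0, 1, 1 and 1 and named no CD4 T-like class. Cells with at least 5000 counts gave 3 higher at 12 and 1 higher at 20 months, and cells with at most 20000 counts gave 1 lower at both ages. Resolution 0.5 gave 2 higher at 12 months, and resolution 2.0 gave 5 lower at 12 and 1 higher at 20 months. Leaving out 4 library-specific genes gave 0 higher at 12 and 1 higher at 20 months. At 12 months the count of higher pairs was 2 with median-ratio scaling, 2 without resting CD8 sub-clusters, 2 in CD8 cells without a count of the 4 receptor genes and 5 with a share of the library mean subtracted, which gave 4 lower. Eomes higher (0.61 to 1.04) and Ikzf2 lower (-1.39 to -0.60) in CD8 T-like cells at 20 months stayed past 1.5-fold in all 16 settings run. Of the ratios past the mark in the main setting, Gata3 in gamma-delta T-like cells at 12 months changed sign (0.57 with the gate). In CD4 T-like cells those that did were Ikzf2 at 12 months (0.38 without library-specific genes), Runx3 at 12 months (-0.23 at resolution 2.0, -0.31 with looser naming, -0.36 without library-specific genes), Tbx21 at 20 months (-1.14 with the gate, -0.073 at 5000 or more counts) and Zeb2 at 20 months (0.68 with the gate, 1.04 with looser naming). Many ratios short of the mark changed sign as well. At 20 months Zeb2 in CD8 T-like cells kept its sign in 9 of 15 settings, and Prdm1 in gamma-delta T-like cells in 11 of 16. The cause was not tested. Over all alternatives, age ratios outside CD4 T-like cells stayed within their counting interval 791 times, moved beyond it 96 times and reversed 1 time, against 164, 5 and 8 times in CD4 T-like cells. A reversal was counted only where the ratio was past the mark in the main setting. Depth limits Tbx21 and Eomes in gamma-delta T-like cells, where 3 counts make 5.45 to 6.13 CPM.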
